A study of Homo sapiens and Mus musculus with 8 samples.

Results

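The genes described here encode the collagens, laminins and integrins and fibronectin, which make up much of the extracellular matrix and the receptors that hold cells to it. Members were chosen by symbol in each of 2 tables of normalized counts, ignoring case: COL, digits, A and digits; LAMA, LAMB or LAMC and a digit; ITGA or ITGB and letters or digits; and FN1. Names of integrin-binding proteins and of antisense genes were left out. The rule uses symbols and no measured value, but it was chosen with earlier results of these data known. The rule found 70 of the 20863 genes listed for the human line and 55 of the 16833 listed for the mouse line. Of these, 47 had a row in both lines, 23 in the human line alone and 8 in the mouse line alone. The 70 human rows are 33 collagens, 12 laminins, 24 integrins (the pseudogene ITGB1P1 and the integrin-like gene ITGBL1 among them) and FN1. The 55 mouse rows are 27 collagens, 8 laminins, 19 integrins and Fn1.

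RNA was sequenced from NCI-H146 (H146), a human small cell lung cancer line, and from F1339, a murine small cell lung cancer line, both grown in culture. H146 received vehicle or 0.5 µM decitabine for 96 h, and F1339 received vehicle or 0.5 µM decitabine for 72 h, with 2 libraries per arm, 8 in all. Decitabine mimics deoxycytidine; cells incorporate it during DNA replication, where it binds the maintenance methyltransferase DNMT1 covalently and leads to its degradation. The study set out to treat chemorefractory disease by depleting DNMT1 without killing cells directly. Treatment was in duplicate, and whether duplicates were separate cultures is not given in the labels, so p-values measure the spread between these libraries, which may be technical. Each library held between 61364041 and 67892360 reads assigned to listed genes. The submitters' notes name the human build for the mouse samples too, and the mouse build is not given in the sources used here. Libraries were grouped by line and treatment, and the lines were never tested against each other, since each table was normalized on its own.

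Both lines expressed markers of the identity their labels give. All 8 small cell and neuroendocrine markers had a row in each line. Their summed level in H146 was 272097 and 276124 normalized counts in vehicle and 268919 and 254560 in decitabine. In F1339 it was 314747 and 213955 in vehicle and 242194 and 179510 in decitabine. Of the 8 in H146, 1 was called higher and 2 lower by the test given below. The shares of all genes tested in H146 were 15.4% and 12.3%.

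Collagens are trimeric proteins that form fibrils, the networks of basement membranes, or linking molecules on the surface of fibrils. Laminins are cross-shaped trimers of an alpha, a beta and a gamma chain that build the basement membrane, and fibronectin is a dimeric glycoprotein that cells assemble into fibrils. Integrins are pairs of an alpha and a beta chain that span the plasma membrane, bind these ligands outside the cell and reach the actin or keratin cytoskeleton inside it. Small cell lung cancer cells commonly grow loosely attached or floating in culture, and adhesion to matrix through ITGB1 integrins is known to protect such cells from chemotherapy.

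In H146 decitabine raised the expression of 23 of the 69 members tested and lowered that of 8. The steepest rises were of COL21A1, LAMB3, COL17A1, LAMB2 and ITGA7, and the steepest fall among genes above the filter in both arms was of LAMA2. A member was called where limma on log2(normalized count + 1) gave a p-value under 0.05 after Benjamini-Hochberg adjustment over all 20783 genes tested. COL26A1, with 26 reads in vehicle and 17 in decitabine, was the 1 member under the filter of 10 normalized counts in 2 libraries, and it was not tested. COL4A4, 1 of the 8 called lower, passed that filter through its vehicle libraries alone, so its direction was fixed by the filter, and 7 were lower without it. The 33.3% of members called higher stand beside 15.4% of all genes tested, and the 11.6% called lower beside 12.3%, a share near the background. The median log2 fold change was 0.21 over the members and −0.01 over all genes tested. Over the 20 members with a mean of at least 1000 it was 0.02, with 5 called higher and 4 lower (25% and 20%). Collagens gave 12 higher and 2 lower of 32, laminins 4 and 4 of 12, and integrins 6 and 2 of 24, and FN1 was higher. Without decitabine replicate 2 the count called higher was 15, with 5 collagens, and without decitabine replicate 1 it included 7 collagens. The count called lower was 4 without decitabine replicate 1, with 0 integrins and 1 collagen, and 5 without decitabine replicate 2, with 1 integrin and 0 collagens. In bulk RNA, fewer cells of a kind and less RNA per cell cannot be told apart.

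**Figure D1:**
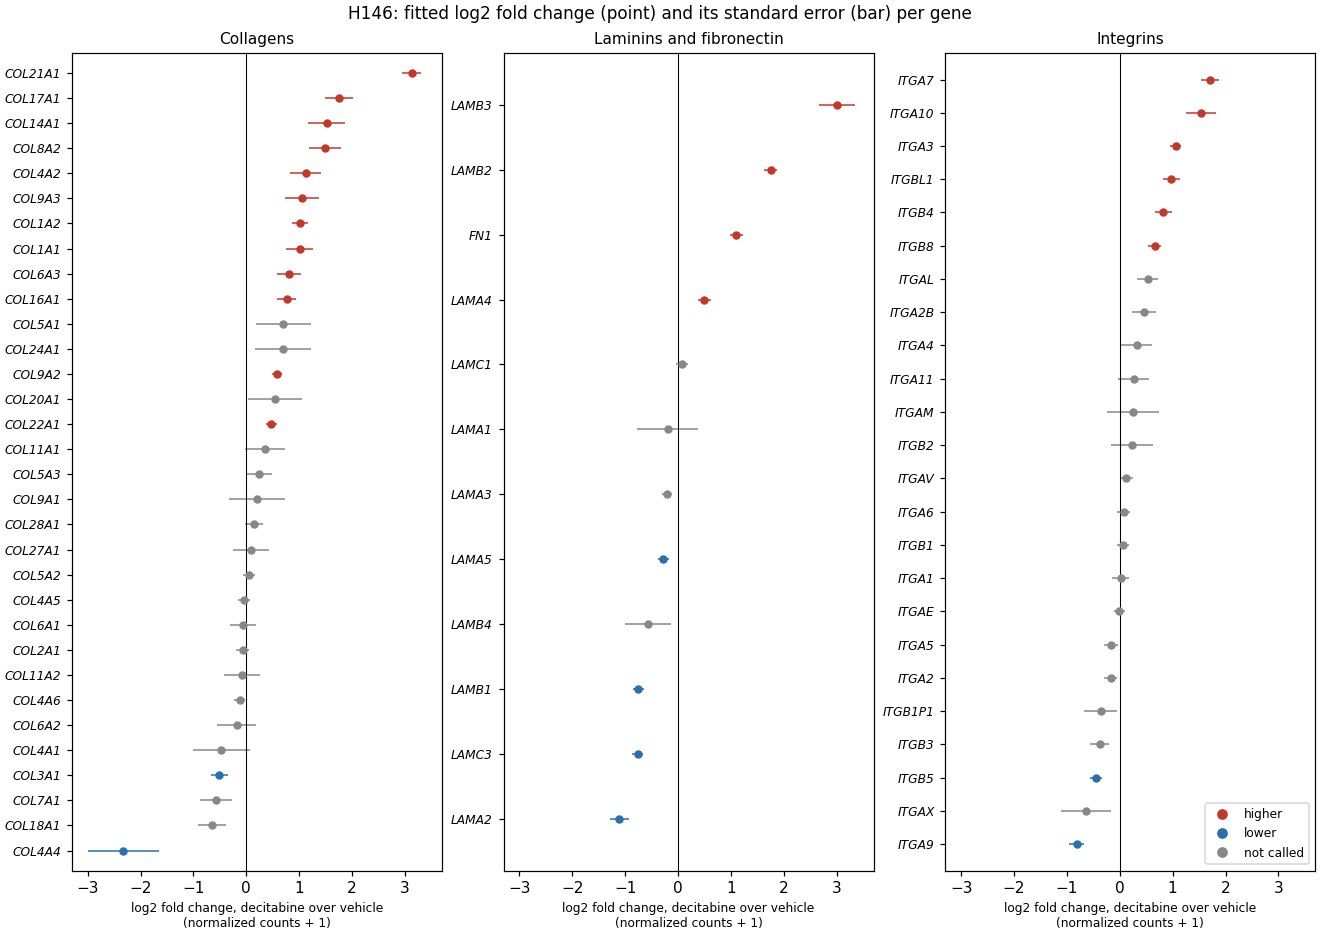
Fitted log2 fold change (decitabine over vehicle, on log2 of normalized counts + 1) of 68 of the 69 H146 members tested, in panels for collagens, laminins with fibronectin, and integrins; bars are standard errors and colours give the call. COL21A1 (3.13) and LAMB3 (3.01) lie far to the right and COL4A4 (−2.32) far to the left, while ITGB1 and ITGA6 lie close to 0.

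Fibrillar collagens form the banded fibres of connective tissue, and in H146 the pair of chains that make type I collagen both rose. COL1A2, the alpha 2 chain (chr7:94394561-94431232, plus strand, GRCh38), was at 289 and 233 in vehicle and 533 and 518 in decitabine, 2.01-fold higher (log2 fold change 1.02 ± 0.16, adjusted p = 1.77e-05). COL1A1, the alpha 1 chain, was at 63.2 and 51.3 in vehicle and 122 and 110.1 in decitabine, 2.03-fold higher (log2 fold change 1.01 ± 0.25, adjusted p = 0.00384). Neither chain overlapped between arms. In COL3A1, the chain of type III collagen, levels were 380.1 and 342 in vehicle and 248 and 258 in decitabine, a fall by a factor of 1.43 (log2 fold change −0.51 ± 0.16, adjusted p = 0.0188). The most abundant fibrillar chain, COL2A1 of cartilage, was at 16826 and 23568 in vehicle and 19214 and 18812 in decitabine and was not called (adjusted p = 0.746). COL5A2, which helps set the diameter of type I fibrils, was at 1299.9 and 1392 in vehicle and 1281 and 1500.4 in decitabine and was not called either (adjusted p = 0.817). COL5A1, COL5A3, COL11A1, COL11A2, COL24A1 and COL27A1 were also not called, so that 2 of 11 fibrillar chains were higher and 1 lower. Those shares, 18.2% and 9.1%, are near the 15.4% and 12.3% of all genes tested. COL1A1 lost its call without decitabine replicate 1 (adjusted p = 0.13) or decitabine replicate 2 (0.0802). COL3A1 lost its call when vehicle replicate 1 (0.0695) or either decitabine library (0.178 without replicate 1, 0.132 without replicate 2) was left out.

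FACITs, the collagens with interrupted triple helices that sit on the surface of fibrils, gave 6 called higher and 0 lower of 8 tested in H146. Their median log2 fold change was 0.67. The shares of all genes tested were 15.4% called higher and 12.3% lower. COL21A1 (chr6:56056590-56394094, minus strand), the chain of type XXI collagen, was at 79.2 and 101 in vehicle and 757 and 819 in decitabine. Its decitabine libraries lay far above both vehicle libraries, and the 8.77-fold rise was the largest of any member by log2 fold change (log2 fold change 3.13 ± 0.17, adjusted p = 4.07e-13). COL22A1, whose protein is found at tissue junctions such as that of muscle and tendon, was at 3378 and 3554 in vehicle and 4720 and 4929 in decitabine, 1.39-fold higher (log2 fold change 0.48 ± 0.10, adjusted p = 5.97e-04). COL9A2 and COL9A3 encode chains of type IX collagen, which coats cartilage fibrils. COL9A2 was at 2034 and 2154 in vehicle and 3282 and 2996 in decitabine, 1.5-fold higher (log2 fold change 0.58 ± 0.10, adjusted p = 1.04e-04), and its arms did not overlap. COL9A3 was at 32.1 and 78 in vehicle and 110 and 100.5 in decitabine (log2 fold change 1.05 ± 0.32, adjusted p = 0.0144), with the vehicle libraries themselves more than 2-fold apart. COL9A1, the remaining chain of that collagen, was near the filter at 12 and 11.3 in vehicle and 10 and 18.4 in decitabine and was not called. COL14A1, which binds the surface of fibrils, was at 24.1 and 18.5 in vehicle and 51 and 76.3 in decitabine (2.99-fold, log2 fold change 1.52 ± 0.35, adjusted p = 0.00189). COL16A1, the chain of type XVI collagen, was at 169.5 and 179.6 in vehicle and 296 and 299 in decitabine (1.7-fold, log2 fold change 0.77 ± 0.17, adjusted p = 0.00158). COL20A1 (14 and 8.21 in vehicle and 16 and 16.4 in decitabine) was not called. COL14A1 lost its call without decitabine replicate 2 (adjusted p = 0.12). COL16A1 lost its call without decitabine replicate 1 (0.0712) or decitabine replicate 2 (0.0737), and COL9A3 when vehicle replicate 1 (0.241), decitabine replicate 1 (0.246) or decitabine replicate 2 (0.183) was left out. The FACIT count was 4 without decitabine replicate 1 and 3 without decitabine replicate 2.

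Type IV collagen is the mesh of basement membranes, built from chains whose genes lie in head-to-head pairs, and in H146 the abundant chains were not called while among the scarce ones COL4A2 rose. COL4A6 was at 17376 and 16673 in vehicle and 14501 and 16758 in decitabine and COL4A5, its head-to-head partner on the X chromosome, at 3088 and 3693 in vehicle and 3078 and 3497 in decitabine. Neither was called (adjusted p = 0.422 and 0.816), and their annotated start sites lie 347 bases apart in GENCODE 29. COL4A2 (chr13:110305812-110513209, plus strand) was at 47.1 and 34.9 in vehicle and 101 and 79.2 in decitabine, a 2.2-fold rise (log2 fold change 1.12 ± 0.29, adjusted p = 0.00487). COL4A1 (chr13:110148963-110307233, minus strand), its partner on chromosome 13 and the chain it is assembled with, was at 13 and 13.3 in vehicle and 8.0 and 10.6 in decitabine and was not called (log2 fold change −0.47 ± 0.54, adjusted p = 0.565). With 26 vehicle and 19 decitabine reads, the ratio of COL4A1 was 0.706 (95% interval for counting error only 0.37 to 1.33). The COL4A2 fold of 2.2 has an error of its own, and the difference between the 2 chains was not tested. COL4A4, whose direction was fixed by the filter as given above, was at 23.1 and 15.4 in vehicle and 7.0 and 0.966 in decitabine; on 38 and 8 reads the ratio was 0.207 (95% interval 0.0822 to 0.444; log2 fold change −2.32 ± 0.68, adjusted p = 0.0115). COL8A2, a short chain of the hexagonal network under endothelium, rose from 28.1 and 27.7 to 78 and 82.1 (2.87-fold, log2 fold change 1.49 ± 0.31, adjusted p = 6.07e-04). COL4A2 lost its call without decitabine replicate 1 (adjusted p = 0.172) or decitabine replicate 2 (0.064), COL4A4 without vehicle replicate 1 (0.122) or decitabine replicate 2 (0.169), and COL8A2 without decitabine replicate 2 (0.051).

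The start regions of COL4A2 and COL4A1 are nearly one stretch of DNA, which is why 1 of them is shown here: the RefSeq windows of 300 bases (250 before to 50 after each start, build GRCh38.p14) share 226 bases. The COL4A2 window is chr13:110307034-110307333 on the plus strand, written 5′ to 3′ with each CG in capitals:
COL4A2: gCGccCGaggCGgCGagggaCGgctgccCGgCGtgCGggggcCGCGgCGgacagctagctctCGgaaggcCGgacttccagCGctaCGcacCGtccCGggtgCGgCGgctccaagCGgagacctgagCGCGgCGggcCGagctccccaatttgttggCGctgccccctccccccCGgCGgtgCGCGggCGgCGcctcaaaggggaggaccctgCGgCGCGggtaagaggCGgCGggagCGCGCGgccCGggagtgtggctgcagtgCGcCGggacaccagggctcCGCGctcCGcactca
It holds 45 CG dinucleotides, a number that 3.48% of the 35116 RefSeq windows reach, against a median of 14. The COL4A1 window holds the same number. CG reads the same on both strands, so 1 strand counts both. No methylation was measured in these libraries.

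Of the filament-forming collagens and the collagens that span membranes, COL17A1 gave the steepest response in H146. COL17A1 encodes the transmembrane collagen of hemidesmosomes, the plaques that rivet epithelial cells to the basement membrane. Its levels were 34.1 and 55.4 in vehicle and 154 and 145 in decitabine, a 3.34-fold rise (log2 fold change 1.76 ± 0.27, adjusted p = 1.84e-05), with no overlap between arms. The gene lies at chr10:104031286-104085957 on the minus strand. Its RefSeq start window, chr10:104085831-104086130 on the minus strand, is shown as a contrast to that of COL4A2, with CG again in capitals:
COL17A1: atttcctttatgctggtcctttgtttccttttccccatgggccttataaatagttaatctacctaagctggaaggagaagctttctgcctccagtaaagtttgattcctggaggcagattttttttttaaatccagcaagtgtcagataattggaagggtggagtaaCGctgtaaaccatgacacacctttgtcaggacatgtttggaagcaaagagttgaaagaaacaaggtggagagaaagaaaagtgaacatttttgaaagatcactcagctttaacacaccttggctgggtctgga
It holds 1 CG, and 11% of all windows hold that many or fewer. COL6A3, the longest chain of the microfibrils of type VI collagen, was at 88.3 and 71.8 in vehicle and 141 and 139 in decitabine (1.75-fold, log2 fold change 0.81 ± 0.23, adjusted p = 0.0104), and it lost its call without decitabine replicate 1 (adjusted p = 0.156) or decitabine replicate 2 (0.143). COL6A1 (112 and 83.1 in vehicle and 81 and 105 in decitabine) and COL6A2 (30.1 and 34.9 in vehicle and 29 and 28 in decitabine), which also encode chains of that collagen, were not called. The levels of COL28A1 (246 and 303 in vehicle and 275 and 333 in decitabine) and COL7A1 (62.2 and 126 in vehicle and 52 and 67.6 in decitabine), the latter the anchoring fibril collagen, were not called, nor was COL18A1 (80.2 and 101 in vehicle and 58 and 56 in decitabine, adjusted p = 0.0738), whose protein yields endostatin. Without vehicle replicate 1 COL7A1 and COL18A1 passed the threshold as lower (0.00151 and 0.0315). COL18A1 shares 16.4% of its exonic bases with SLC19A1 on the opposite strand, and whether reads were counted by strand is not given in the sources used here.

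Laminin genes moved both ways in H146, with 4 of 12 higher, 4 lower and 4 not called. Among all genes tested 15.4% were higher and 12.3% lower. The sum over all 12 laminins was 31009 and 29515 normalized counts in vehicle and 22146 and 24389 in decitabine. Most of that drop lay in LAMB1. LAMB1 (chr7:107923799-108003255, minus strand), the beta 1 chain of most basement membrane laminins, was at 17448 and 16761 in vehicle and 9866 and 10443 in decitabine. It fell by a factor of 1.68 (log2 fold change −0.75 ± 0.10, adjusted p = 3.33e-06), and it stayed the most abundant laminin chain in every library. LAMB2 (chr3:49121114-49133118, minus strand), the beta 2 chain of synaptic, muscle and kidney basement membranes, was at 345 and 395 in vehicle and 1254 and 1239 in decitabine. It rose 3.37-fold (log2 fold change 1.75 ± 0.13, adjusted p = 9.95e-11). Per kilobase of exon, LAMB2 was 2.35% and 2.80% of LAMB1 in the vehicle libraries and 15.1% and 14.1% in the decitabine libraries. LAMB3, the beta chain of epidermal laminin, was at 13 and 11.3 in vehicle and 96 and 115 in decitabine, 8.67-fold higher (log2 fold change 3.01 ± 0.34, adjusted p = 2.18e-07). LAMB4 (20.1 and 37 in vehicle and 14 and 23.2 in decitabine) was not called.

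The start windows of LAMB2 and LAMB1, beta chains that moved in opposite directions, are set side by side, 5′ to 3′ on the minus strand with CG in capitals. The LAMB2 window is chr3:49133001-49133300 and the LAMB1 window chr7:108003112-108003411 in GRCh38.p14, from RefSeq:
LAMB2: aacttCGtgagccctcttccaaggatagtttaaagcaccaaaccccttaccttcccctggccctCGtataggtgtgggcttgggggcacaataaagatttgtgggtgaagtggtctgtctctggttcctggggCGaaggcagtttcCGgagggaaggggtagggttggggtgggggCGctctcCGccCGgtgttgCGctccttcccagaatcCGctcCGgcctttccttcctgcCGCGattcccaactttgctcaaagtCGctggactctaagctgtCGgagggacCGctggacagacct
LAMB1: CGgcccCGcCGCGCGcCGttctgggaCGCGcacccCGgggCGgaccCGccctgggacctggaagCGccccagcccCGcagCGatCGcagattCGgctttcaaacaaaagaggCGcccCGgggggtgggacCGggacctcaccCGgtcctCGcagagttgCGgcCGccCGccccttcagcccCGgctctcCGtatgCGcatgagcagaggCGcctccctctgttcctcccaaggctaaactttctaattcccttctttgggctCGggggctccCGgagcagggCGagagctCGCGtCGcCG
The window of LAMB2, which rose, holds 15 CG, and that of LAMB1, which fell, holds 35. That of LAMA2, which also fell, holds 10, and a relation of CG number to direction was not tested. Of all windows, 48.9% hold as many as that of LAMB2 or more, and 14.1% as many as that of LAMB1 or more. Of the 70 members 48 had a window, too few to compare the members as a set.

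Among the gamma chains of H146, LAMC3 fell. LAMC3, the gamma 3 chain, was at 1979.9 and 1806 in vehicle and 1147 and 1078 in decitabine, lower by a factor of 1.7 (log2 fold change −0.77 ± 0.11, adjusted p = 7.30e-06), and its arms did not overlap. LAMC1, the widespread gamma 1 chain, was at 3487 and 2840 in vehicle and 2971 and 3721 in decitabine and was not called (adjusted p = 0.667). LAMA3, the alpha chain that pairs with LAMB3, was at 2335 and 2346 in vehicle and 1967 and 2089 in decitabine and was not called (adjusted p = 0.139).

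The alpha chains carry the part of laminin that integrins bind. In H146 1 of 5 was higher and 2 were lower, beside 15.4% and 12.3% of all genes tested. LAMA2, the alpha chain of muscle and nerve basement membranes, was at 427 and 333 in vehicle and 153 and 198 in decitabine, lower by a factor of 2.16 (log2 fold change −1.11 ± 0.18, adjusted p = 4.56e-05). LAMA5, the most abundant alpha chain and that of adult lung basement membranes, was at 3621 and 3759 in vehicle and 2775 and 3319.6 in decitabine (log2 fold change −0.28 ± 0.11, adjusted p = 0.0475), a difference just past the threshold. LAMA4, found in vessel walls, was at 754 and 765 in vehicle and 1020 and 1127 in decitabine (1.41-fold, log2 fold change 0.50 ± 0.12, adjusted p = 0.0026), and LAMA1 (11 and 12.3 in vehicle and 6.0 and 16.4 in decitabine) was not called. LAMA4 lost its call without decitabine replicate 2 (adjusted p = 0.0956). LAMA5 lost its call without vehicle replicate 1 (0.0628), vehicle replicate 2 (0.151) or decitabine replicate 1 (0.448).

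**Figure D2:**
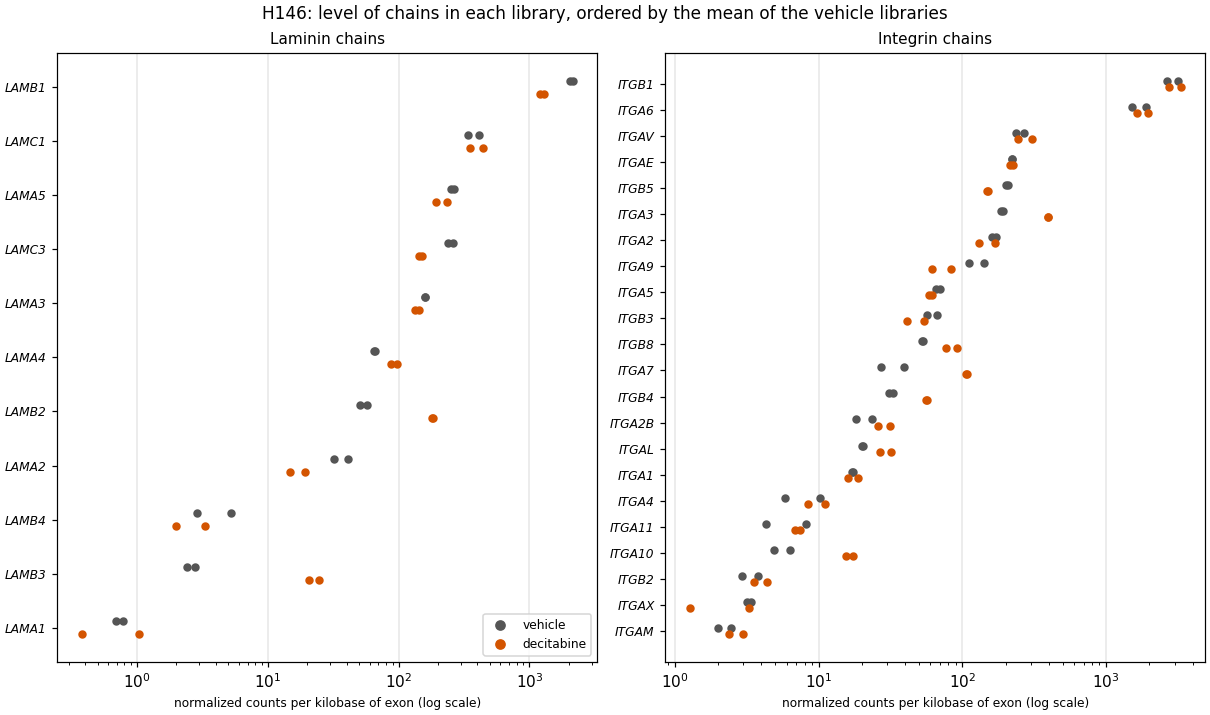
Level of 11 laminin chains (left) and of the integrin chains (right) in each H146 library, in normalized counts per kilobase of exon on a log scale, ordered by the vehicle mean; grey points are vehicle and orange points decitabine, 2 libraries each. LAMB1 and ITGB1 lead in both arms, LAMB2 and LAMB3 move right with decitabine, and LAMB1, LAMC3 and LAMA2 move left.

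Per kilobase of exon, the order of the laminin chains in H146 vehicle libraries ran from LAMB1 (mean level 2101) over LAMC1 (376), LAMA5 (258), LAMC3 (249) and LAMA3 (159) to LAMB3 (2.59) and LAMA1 (0.736). In decitabine libraries LAMB1 (1247) and LAMC1 (398) still led, and LAMB2 (182) came near LAMA5 (213). The beta 1 chain was thus above every alpha and gamma chain in each arm.

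Integrin alpha chains that bind laminin gave 2 of 3 called higher in H146, beside 15.4% of all genes tested. ITGA3 (chr17:50055968-50090481, plus strand), the receptor chain for laminins of epithelial basement membranes, was at 1883 and 1811 in vehicle and 3849 and 3844 in decitabine, 2.08-fold higher (log2 fold change 1.06 ± 0.10, adjusted p = 1.01e-08). ITGA7, the laminin receptor chain of muscle, was at 252 and 173 in vehicle and 681 and 689 in decitabine, 3.22-fold higher (log2 fold change 1.71 ± 0.17, adjusted p = 1.69e-08). ITGA6, the third laminin receptor chain and the most abundant alpha chain per kilobase in both arms (1715 ± 279 in vehicle and 1799 ± 231 in decitabine), was at 12490.5 and 9913 in vehicle and 10681 and 12819 in decitabine and was not called (adjusted p = 0.698). Libraries of the 2 arms overlapped for ITGA6 and did not for ITGA3. Per kilobase ITGA3 was 10.1% and 12.2% of ITGA6 in the vehicle libraries and 24.02% and 19.99% in the decitabine libraries.

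Among the collagen-binding alpha chains of H146 the scarcest rose. ITGA10, the cartilage receptor chain for collagen, was at 31.1 and 40.03 in vehicle and 110 and 98.5 in decitabine, 2.93-fold higher (log2 fold change 1.53 ± 0.28, adjusted p = 1.94e-04). ITGA2 (1368 and 1275 in vehicle and 1031 and 1326 in decitabine), ITGA1 (321 and 318 in vehicle and 297 and 352 in decitabine) and ITGA11 (47.1 and 88.3 in vehicle and 81 and 74.4 in decitabine) bind collagens too and were not called. The chains that recognise the RGD sequence of fibronectin and vitronectin, ITGAV at 2208 and 1931 in vehicle and 2004 and 2530.3 in decitabine, ITGA5 at 534 and 495 in vehicle and 446 and 469 in decitabine and the platelet chain ITGA2B at 101 and 130.4 in vehicle and 143 and 175 in decitabine, were not called. ITGA9, a receptor chain for tenascin and osteopontin, was at 1174 and 928 in vehicle and 510 and 689.8 in decitabine, lower by a factor of 1.75 (log2 fold change −0.81 ± 0.14, adjusted p = 1.18e-04). Its call was lost without decitabine replicate 1 (adjusted p = 0.0521), and 6.46% of its exonic bases are shared with ITGA9-AS1 on the opposite strand, which was at 79.2 and 66.7 in vehicle and 108 and 101.4 in decitabine and was not called. Its relative ITGA4 (81.2 and 46.2 in vehicle and 67 and 87.9 in decitabine) was not called. Of the 4 leukocyte alpha chains with a row, ITGAE was at 1483 and 1473 in vehicle and 1424 and 1511 in decitabine, ITGAL at 132 and 129 in vehicle and 172 and 208 in decitabine, ITGAM at 14 and 11.3 in vehicle and 17 and 13.5 in decitabine and ITGAX at 24.1 and 22.6 in vehicle and 9.0 and 23.2 in decitabine, and 0 of 4 were called, ITGAL with an adjusted p of 0.0524. Without 1 vehicle library the threshold was passed by ITGAL (replicate 1 left out, adjusted p = 0.0472) and by ITGA2B (replicate 2 left out, 0.0269), both higher.

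The beta chains decide which alpha chains can reach the surface. In H146 2 of 6 were higher and 1 lower, beside 15.4% and 12.3% of all genes tested. ITGB1, the common partner of most alpha chains, was at 19074 and 15886 in vehicle and 16523 and 19949 in decitabine with overlapping arms and was not called (adjusted p = 0.751). ITGB4, the hemidesmosomal chain whose sole alpha partner is ITGA6, was at 211 and 223 in vehicle and 385 and 381 in decitabine, 1.77-fold higher (log2 fold change 0.82 ± 0.16, adjusted p = 3.74e-04). ITGB8, a partner of ITGAV that helps release active TGF-beta, was at 812 and 798 in vehicle and 1160 and 1390.2 in decitabine, 1.58-fold higher (log2 fold change 0.66 ± 0.12, adjusted p = 1.75e-04). ITGB5, another ITGAV partner and a vitronectin receptor, was at 1352 and 1293 in vehicle and 981 and 956 in decitabine, lower by a factor of 1.37 (log2 fold change −0.45 ± 0.11, adjusted p = 0.00381); that call was lost without decitabine replicate 1 (adjusted p = 0.0538) or decitabine replicate 2 (0.0697). ITGB3 (252 and 296 in vehicle and 182 and 239.6 in decitabine) and the leukocyte chain ITGB2 (20.1 and 25.7 in vehicle and 24 and 29.9 in decitabine) were not called, ITGB3 being lower past the threshold without vehicle replicate 1 (adjusted p = 0.0424). ITGB3 shares 51.6% of its exonic bases with AC068234.1 on the same strand, which had no row, so reads in the shared part cannot be told apart. ITGBL1, a secreted protein with integrin-like repeats and no receptor chain, was at 263 and 255 in vehicle and 477 and 546 in decitabine (1.98-fold, log2 fold change 0.98 ± 0.15, adjusted p = 2.24e-05). It shares 70.5% of its exonic bases with FGF14 on the opposite strand, whose level of 4144 and 3862 in vehicle and 4172 and 4203 in decitabine was not called, so without strand the reads of the 2 genes cannot be told apart. ITGB1P1 (57.2 and 51.3 in vehicle and 48 and 36.7 in decitabine) is a pseudogene of ITGB1 and may take reads from it; it was not called.

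FN1 (chr2:215360440-215436172, minus strand), which encodes fibronectin, was at 1589 and 1286 in vehicle and 2862 and 3311 in decitabine. Both decitabine libraries lay above both vehicle libraries, and the rise was 2.15-fold (log2 fold change 1.11 ± 0.11, adjusted p = 4.89e-08). Its classical receptor pair, ITGA5 and ITGB1, was not called, as given above.

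**Figure D3:**
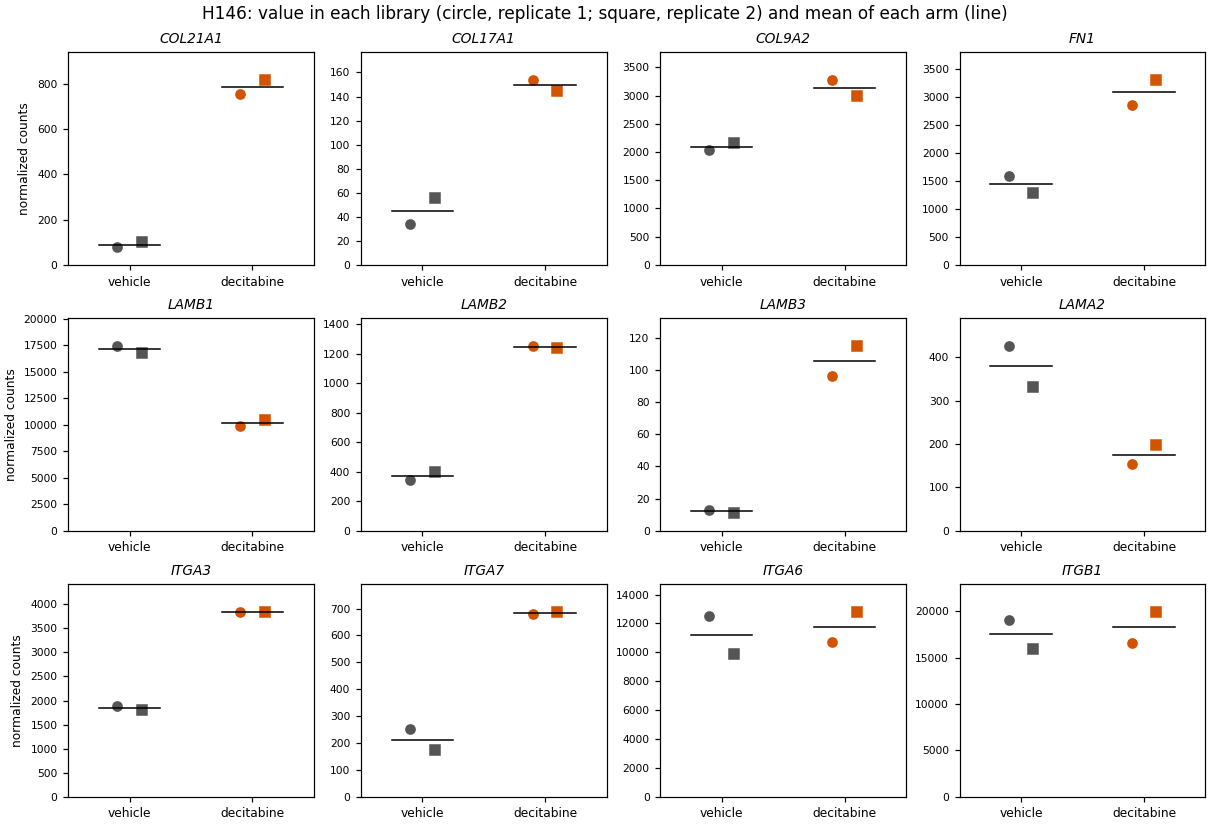
Normalized counts of 12 H146 members in each library, with vehicle in grey and decitabine in orange, circles for replicate 1, squares for replicate 2 and a line at the mean of each arm; each vertical axis starts at 0. The arms are apart for COL21A1, LAMB1, LAMB2, LAMB3 and ITGA3, and they overlap for ITGA6 and ITGB1.

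Lists of the genes that build, anchor and cut these proteins were written with earlier results of these data known. In H146 collagen biosynthesis genes were called in both directions, and each other list had more genes higher than lower. The shares of all genes tested were 15.4% higher and 12.3% lower. Of 30 genes of collagen biosynthesis 6 were higher and 7 lower (median log2 fold change −0.15). The lysyl oxidase gene LOXL4, whose enzyme cross-links collagen, was at 133 and 117 in vehicle and 372 and 407 in decitabine (log2 fold change 1.63 ± 0.18, adjusted p = 1.14e-07). The procollagen N-proteinase gene ADAMTS14 was at 1421 and 1756 in vehicle and 522 and 531 in decitabine (log2 fold change −1.58 ± 0.13, adjusted p = 3.87e-10), and PCOLCE, an enhancer of procollagen C-proteinase, at 147 and 115 in vehicle and 259 and 239.6 in decitabine (log2 fold change 0.93 ± 0.20, adjusted p = 7.21e-04). PCOLCE lost its call without decitabine replicate 1 (adjusted p = 0.0787). Without decitabine replicate 1 the count of this list was 2 higher and 4 lower, and without decitabine replicate 2 it was 3 and 4.

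Of 48 other matrix glycoproteins and proteoglycans in H146, 17 were higher and 5 lower (median 0.24), with 11 higher without decitabine replicate 2 and 8 lower without vehicle replicate 2. TGFBI, a TGF-beta-induced matrix protein that binds integrins, was at 15 and 12.3 in vehicle and 330 and 351 in decitabine, 24.9-fold higher (log2 fold change 4.54 ± 0.27, adjusted p = 1.49e-12). VTN, which encodes the RGD protein vitronectin, was at 74.2 and 81.1 in vehicle and 759 and 565 in decitabine, 8.53-fold higher (log2 fold change 3.06 ± 0.19, adjusted p = 2.36e-12). COMP, the cartilage oligomeric matrix protein, was at 23.1 and 12.3 in vehicle and 108 and 105 in decitabine, 6.03-fold higher (log2 fold change 2.59 ± 0.34, adjusted p = 2.16e-06). These 3 are ligands or neighbours of collagens and integrins, and their arms did not overlap.

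Inside the cell, 11 of 38 genes of integrin adaptors and focal adhesions were higher in H146 and 1 was lower (median 0.19); the count of lower genes was 0 without decitabine replicate 1 and 2 when either vehicle library was left out. TNS4, a tensin that binds beta chain tails, was at 3.01 and 6.16 in vehicle and 106 and 90.8 in decitabine. It passed the filter through its decitabine libraries alone, so its direction was fixed by the filter, and 10 adaptors were higher without it. ZYX, which encodes zyxin of focal adhesions, was at 219.7 and 173 in vehicle and 705 and 558 in decitabine (log2 fold change 1.68 ± 0.17, adjusted p = 2.10e-08). LIMS2, an adaptor of integrin-linked kinase, was at 59.2 and 55.4 in vehicle and 153 and 133 in decitabine (log2 fold change 1.30 ± 0.24, adjusted p = 2.02e-04), and it lost its call without decitabine replicate 1 (adjusted p = 0.0514). Of 19 other matrix receptors 5 were higher and 1 lower (median 0.12). The count of higher receptors was 3 without vehicle replicate 2, 2 without decitabine replicate 1 and 3 without decitabine replicate 2, and that of lower receptors 2 without vehicle replicate 2 and 0 when either decitabine library was left out. Among them were the collagen uptake receptor MRC2 at 164 and 191 in vehicle and 429 and 335 in decitabine (log2 fold change 1.09 ± 0.18, adjusted p = 3.56e-05) and the syndecan SDC3 at 3015 and 2755 in vehicle and 5313 and 5212 in decitabine (log2 fold change 0.87 ± 0.10, adjusted p = 2.40e-07). CD47, the thrombospondin receptor, was at 47433 and 42619 in vehicle and 32394 and 32471 in decitabine (log2 fold change −0.47 ± 0.12, adjusted p = 0.00408), a call lost without decitabine replicate 1 (adjusted p = 0.0958) or decitabine replicate 2 (0.0859). Of 27 matrix proteases and inhibitors 7 were higher and 4 lower (median 0.06). When either decitabine library was left out 4 were higher, and the count of lower genes was 1 without vehicle replicate 1, 2 without vehicle replicate 2, 0 without decitabine replicate 1 and 1 without decitabine replicate 2. MMP14, a membrane-bound collagenase, was at 42.1 and 46.2 in vehicle and 164 and 142 in decitabine (log2 fold change 1.77 ± 0.25, adjusted p = 6.58e-06), ADAMTS4, an aggrecanase, at 35.1 and 49.3 in vehicle and 116 and 135 in decitabine (log2 fold change 1.57 ± 0.27, adjusted p = 8.87e-05), and TIMP1, an inhibitor of metalloproteinases, at 408 and 348 in vehicle and 1104 and 819 in decitabine (log2 fold change 1.33 ± 0.15, adjusted p = 1.35e-07).

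In H146 markers of endothelium, fibroblasts and epithelium were called higher more often than lower, and those of blood cells were not. Of all genes tested, 15.4% were called higher and 12.3% lower. Of the 6 endothelial markers with a row out of 7 listed, 5 were higher and 0 lower, and their summed level was 521 to 604 in vehicle and 1473 to 1491 in decitabine. PECAM1 (42.1 and 77 in vehicle and 413 and 423 in decitabine) led them, VWF was at 305 and 312 in vehicle and 696 and 714 in decitabine, and KDR was the 1 without a row. Without decitabine replicate 1 or decitabine replicate 2 the endothelial count was 2. Of 5 fibroblast markers with a row out of 8, 3 were higher and 0 lower, with summed levels of 10917 to 11702 and 14560 to 15730, and 2 were higher when vehicle replicate 2 or either decitabine library was left out. PDGFRA (2271 and 2076 in vehicle and 2843 and 3354 in decitabine), THY1 (9052 and 8448 in vehicle and 12187 and 10639 in decitabine) and ACTA2 (279 and 286 in vehicle and 595 and 499 in decitabine) were the 3. DCN (29.1 and 44.1 in vehicle and 48 and 22.2 in decitabine) and PDGFRB (71.2 and 61.6 in vehicle and 57 and 45.4 in decitabine) were low and not called, and LUM, FAP and TCF21 had no row. Of 5 epithelial markers with a row out of 7, 3 were higher and 0 lower, with summed levels of 110559 to 114510 and 134524 to 149164, and 1 was higher when either decitabine library was left out. Of 5 blood cell markers with a row out of 8, 1 was higher and 1 lower, with summed levels of 676 to 837 and 736 to 755, the 1 lower, PTPRC, losing its call when either decitabine library was left out (2 were lower without vehicle replicate 2), and 0 of 4 platelet markers had a row. H146 is a cell line, and the part of these markers in the changes of matrix genes was not tested.

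In F1339 limma called 0 of 54 members, as it called 0.0% of the 16680 genes tested. At an unadjusted p under 0.05 there were 932 genes, 6 of them members, and edgeR also called 0 genes (931 at an unadjusted p under 0.05), while DESeq2 called 107. DESeq2 called 0.462% of genes higher, among them 1 member, Col9a3. The members lay higher in decitabine without overlap between arms for 22 of 54 and lower for 2, or 40.74% and 3.704%, where 17.9% of all genes tested were higher in this way and 18.0% lower. The median log2 fold change of the 54 was 0.53, against −0.01 over all genes tested. Over the 11 members with a mean of at least 1000 it was −0.09, with 2 higher and 1 lower without overlap. Itgb7 passed the filter through its decitabine libraries alone, so its direction was fixed by the filter and 21 were higher without it. Col6a5, with 1 vehicle and 82 decitabine reads (ratio 80.8, 95% interval for counting error only 13.5 to 3098), was not tested.

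Libraries of F1339 were split by their number for more genes than by treatment. The arms were apart for 24 of 54 members and for 35.85% of all genes tested. For 30 of 54 members both libraries numbered 1 lay above or below both numbered 2, which was so for 52.7% of all genes tested, and for 31 of 54 the libraries of at least 1 arm differed 2-fold or more, against 17.5% of all genes tested. Col8a1, a network collagen of vessel walls, was at 3261 and 399 in vehicle and 1839 and 178 in decitabine, with the libraries numbered 1 far above those numbered 2 in both arms. Col28a1 was at 1528 and 474 in vehicle and 905 and 223 in decitabine in the same order, and Itga9 at 161 and 20.49 in vehicle and 257 and 32.6 in decitabine. Col5a1, which nucleates fibrils, was at 508 and 2355 in vehicle and 1040.1 and 2824 in decitabine, in the opposite order. In H146 the libraries of 8 of 69 members were split by number, against 17.4% of all genes tested.

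Collagens of F1339 with the steepest log2 fold changes were scarce. Col9a3 was at 8.64 and 10.7 in vehicle and 50.1 and 153 in decitabine, 10.5-fold by the ratio of means on 19 and 210 reads (95% interval for counting error only 6.53 to 17.7; log2 fold change 3.06 ± 0.65, adjusted p = 0.89 in limma, 0.0286 in DESeq2). Col9a2, another chain of type IX collagen, was at 49.7 and 3.9 in vehicle and 128 and 49.9 in decitabine (adjusted p = 0.901), and Col2a1, the fibril it coats, at 3.24 and 24.4 in vehicle and 19.7 and 104 in decitabine with overlapping arms. The FACIT genes Col16a1 and Col20a1 were at 122 and 346 in vehicle and 414 and 961 in decitabine and at 22.7 and 21.5 in vehicle and 71.8 and 56.6 in decitabine. Their arms did not overlap and they were not called (adjusted p = 0.89 and 0.89). Of the 8 FACITs in F1339 5 were higher without overlap and 0 lower, with a median of 1.37. The shares of all genes tested were 17.9% higher in this way and 18.0% lower. Col22a1 (89.6 and 139 in vehicle and 53.1 and 149.7 in decitabine) overlapped between arms. Among fibrillar chains Col11a1 was at 500 and 1020.5 in vehicle and 563 and 1278 in decitabine and Col1a1 at 34.6 and 75.1 in vehicle and 80.6 and 281 in decitabine, the latter higher without overlap.

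The abundant basement membrane collagens of F1339 were not called. Col4a1 was at 4309 and 4113 in vehicle and 4340.1 and 3253 in decitabine and Col4a2, its partner chain, at 2984 and 2061 in vehicle and 2362 and 1595 in decitabine, log2 fold changes of −0.16 ± 0.18 and −0.35 ± 0.28. Both chains were thus at 1595 or more in every F1339 library and at 101 or less in every H146 library, in tables that were normalized separately. The transmembrane collagens Col25a1 (1867 and 2079 in vehicle and 1825 and 1145 in decitabine) and Col23a1 (85.3 and 200.98 in vehicle and 102 and 109 in decitabine) were not called, and Col25a1 was lower without overlap. The multiplexins Col18a1 (19.4 and 27.3 in vehicle and 45.2 and 47 in decitabine) and Col15a1 (15.1 and 9.76 in vehicle and 22.6 and 24 in decitabine) and the anchoring fibril gene Col7a1 (30.2 and 31.2 in vehicle and 59 and 78.7 in decitabine) were higher without overlap and not called (adjusted p = 0.89, 0.902 and 0.89).

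Laminin genes of F1339 were led by Lamc1, at 4232 and 2833 in vehicle and 3861 and 3031 in decitabine, and Lama5, at 1514 and 1907 in vehicle and 2080.1 and 2476 in decitabine. Lama5 lay higher in decitabine without overlap (log2 fold change 0.42 ± 0.19, adjusted p = 0.89) and Lamc1 did not. Lamb3 (233 and 150.2 in vehicle and 258 and 115 in decitabine), Lamb1 (68 and 40.00 in vehicle and 72.7 and 51.8 in decitabine) and Lama1 (14 and 59.5 in vehicle and 28.5 and 107 in decitabine) overlapped between arms, and Lamb2 (23.8 and 24.4 in vehicle and 35.4 and 76.8 in decitabine) did not. Fn1 was at 5269 and 5275 in vehicle and 5857 and 5873 in decitabine, 1.11-fold (log2 fold change 0.15 ± 0.11, adjusted p = 0.907), with libraries of an arm closer to each other than the arms were.

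Among integrins of F1339 the abundant chains were Itga6 at 21226 and 11489.7 in vehicle and 21478 and 9781 in decitabine, Itgb1 at 16684 and 15089.7 in vehicle and 16658 and 16518 in decitabine and Itga3 at 14909 and 16773 in vehicle and 14279.7 and 15402 in decitabine. Libraries numbered 1 and 2 differed more than the arms for Itga6, and none of these 3 was called (adjusted p = 0.986, 0.96 and 0.946). The ITGAV partner genes Itgb5 (174 and 441 in vehicle and 459 and 799.5 in decitabine) and Itgb3 (499 and 603 in vehicle and 727 and 989.6 in decitabine) were higher without overlap and not called (adjusted p = 0.892 and 0.89). Itgal, the leukocyte alpha L chain, was at 65.9 and 54.6 in vehicle and 33.4 and 26.9 in decitabine, lower without overlap (log2 fold change −0.98 ± 0.39, adjusted p = 0.89), and Itgae at 41 and 47.8 in vehicle and 23.6 and 69.1 in decitabine. The collagen receptor chains Itga1 (491 and 262 in vehicle and 608 and 398 in decitabine) and Itga10 (16.2 and 47.8 in vehicle and 39.3 and 57.6 in decitabine), the RGD receptor chains Itga8 (253 and 574 in vehicle and 305 and 758 in decitabine) and Itgav (195 and 322 in vehicle and 266 and 393 in decitabine), Itga4 (24.8 and 60.5 in vehicle and 35.4 and 72 in decitabine) and Itgbl1 (757 and 415 in vehicle and 431 and 302 in decitabine) overlapped between arms.

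The scarcer F1339 members with arms apart in the higher direction included the network chain Col8a2 (14 and 27.3 in vehicle and 51.1 and 49.9 in decitabine), the fibrillar chain Col11a2 (47.5 and 31.2 in vehicle and 88.5 and 95 in decitabine) and the type IV chain Col4a5 (22.7 and 47.8 in vehicle and 59 and 64.3 in decitabine), and Col4a4 (10.8 and 14.6 in vehicle and 18.7 and 20.2 in decitabine), Col9a1, Itga11, Lama3 (32.4 and 20.49 in vehicle and 37.4 and 32.6 in decitabine) and the platelet chain Itga2b (143 and 179 in vehicle and 188 and 224 in decitabine) lay the same way. The hemidesmosomal chain Itgb4 (161 and 54.6 in vehicle and 236 and 121 in decitabine), Itgb8 (100.4 and 29.3 in vehicle and 116 and 49.9 in decitabine), Lama2 (7.56 and 28.3 in vehicle and 10.8 and 33.6 in decitabine), Col12a1, Col14a1 and Col6a3 overlapped between arms. These genes were not called by limma.

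**Figure D4:**
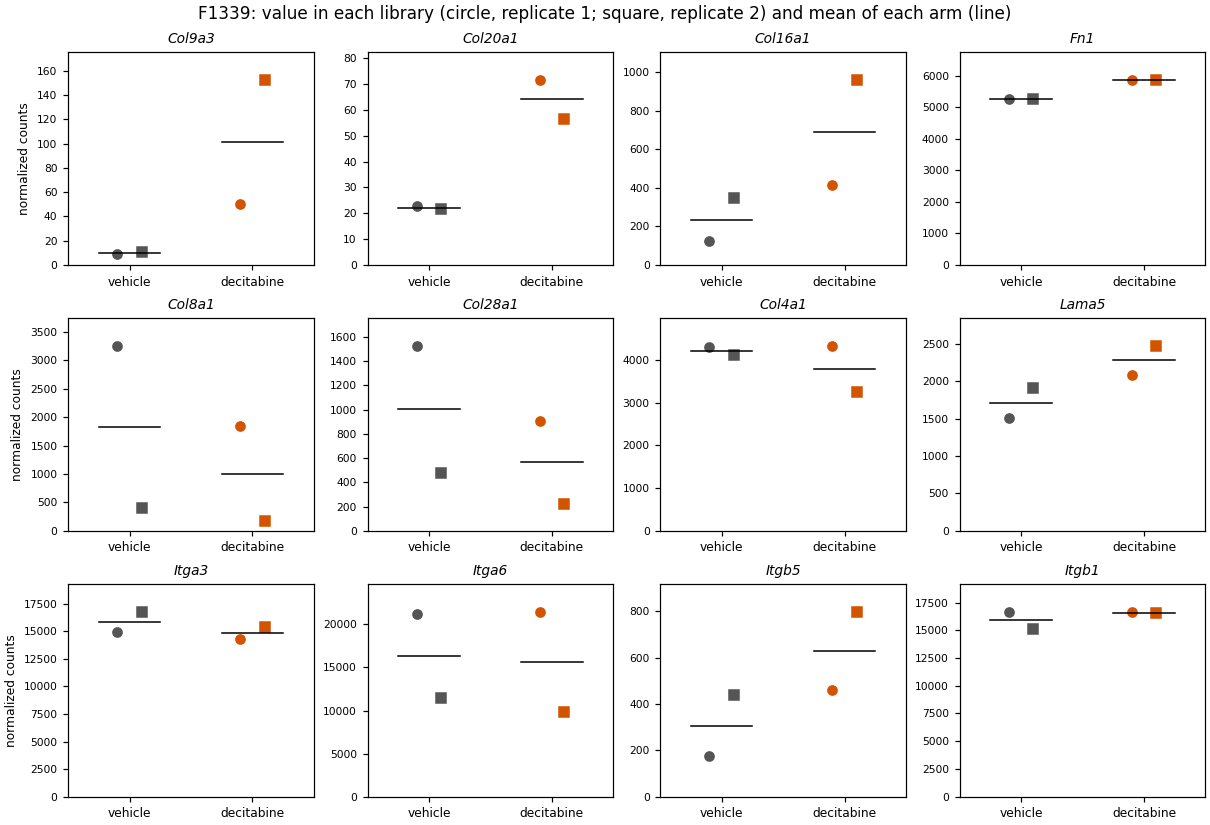
Normalized counts of 12 F1339 members, chosen after their values were seen, in each library; vehicle is grey and decitabine orange, circles are replicate 1, squares replicate 2, lines the mean of each arm, and each vertical axis starts at 0. Col8a1, Col28a1 and Itga6 separate by library number in both arms, Col9a3 and Fn1 by treatment.

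Companion genes of F1339 gave 0 calls in any list by limma. Of all F1339 genes tested, 17.9% lay higher without overlap between arms and 18.0% lower. The adaptors, at 17.65% and 20.59%, were near those shares. By list, 8 of 24 collagen biosynthesis genes were higher without overlap and 2 lower, and 13 and 4 of 39 other matrix glycoproteins and proteoglycans. The counts were 6 and 7 of 34 adaptors, 4 and 2 of 19 other receptors, and 15 and 2 of 27 proteases and inhibitors. Over all lists, 6 genes passed the filter through their decitabine libraries alone. Without them 6 biosynthesis genes, 11 glycoproteins and proteoglycans and 13 proteases and inhibitors were higher. The most abundant gene of each list was P4hb (60337 and 69329.5 in vehicle and 68978 and 73202 in decitabine), a subunit of prolyl hydroxylase, Spock2 (52822 and 44784 in vehicle and 60562 and 64726 in decitabine), a proteoglycan, Flna (31087 and 27531 in vehicle and 32184 and 33849.6 in decitabine), an actin cross-linker, Rpsa (141794 and 139229 in vehicle and 131916 and 104128 in decitabine), the ribosomal protein that is also a laminin receptor, and Mmp24 (8463 and 6071 in vehicle and 7870.2 and 5739 in decitabine), a membrane metalloproteinase. Endothelial markers, 5 of 7 with a row, summed to 462 and 409.8 in vehicle and 769.7 and 1233 in decitabine. Epithelial markers, 5 of 7 with a row, summed to 3957 and 4291 in vehicle and 4791 and 6329 in decitabine. Of the 4 epithelial markers tested, 2 were higher without overlap and 2 overlapped between arms. Krt8, 1 of those higher, was at 51.8 and 121 in vehicle and 218 and 1048 in decitabine. Krt8 was called by DESeq2 (adjusted p = 0.0445) and not by limma (0.89). The fibroblast markers, 4 of 8 with a row, summed to 1752 to 1849 in vehicle and 1733 to 1837 in decitabine. For blood cells 1 of 8 markers had a row and for platelets 1 of 4, with levels under 102. The part of these markers in the values of the matrix genes was not tested.

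Of the 47 genes with a row in both lines, 24 had log2 fold changes of the same sign, or 51.1%, and over all 11845 genes tested in both 56.2% did. Arms were apart in the same direction in both lines for 9 of the 47, where the background was 15.3%, and in opposite directions for 7, where it was 8.37%. Of 17 shared members called higher in H146, 12 had an F1339 log2 fold change above 0 and 7 lay higher there without overlap, with 0 lower. Over all genes called higher in H146 and tested in both lines, 1090 of 1779 lay above 0 in F1339. Of those 1779, 456 lay higher there without overlap and 185 lower. Of 6 shared members called lower in H146, 0 had an F1339 log2 fold change below 0, and 3 lay higher there without overlap. Over all genes called lower in H146 and tested in both lines, 1087 of 1751 lay below 0 in F1339. Of those 1751, 226 lay higher there without overlap and 436 lower. Those 6 were COL4A4, whose H146 direction was fixed by the filter, ITGA9, ITGB5, LAMA2, LAMA5 and LAMB1. The lines differ in species, exposure time and table, and no test between them was made.

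**Figure D5:**
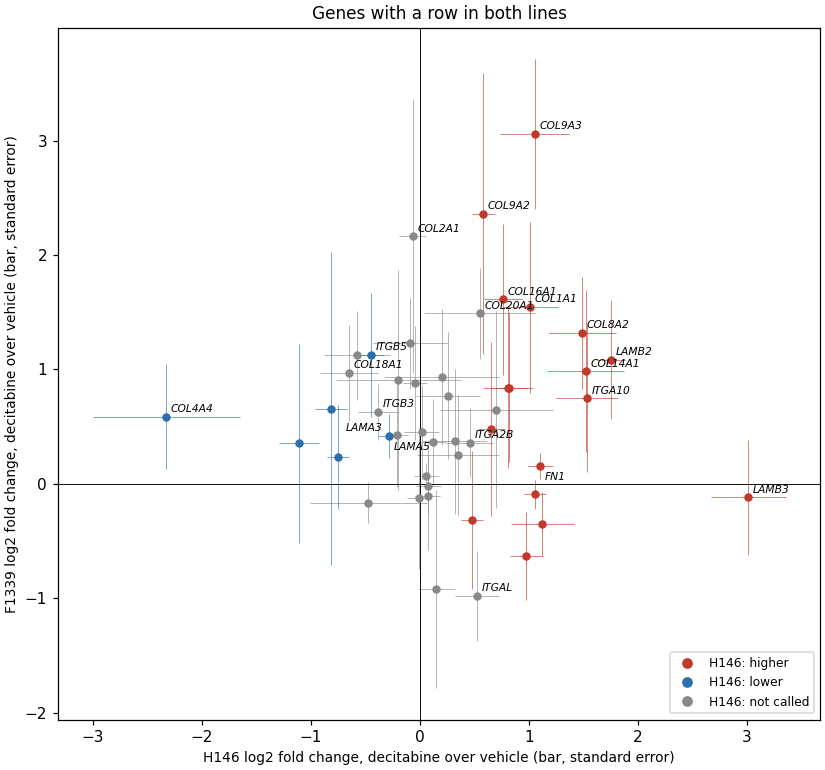
Log2 fold change in F1339 against that in H146 for the 47 genes with a row in both lines; bars are standard errors, colours give the H146 call, and names are those of genes whose arms were apart in both lines or whose log2 fold change exceeded 1.4 in size in either. COL9A3 and LAMB2 lie high in both, and the 6 members called lower in H146 all lie above 0 on the F1339 axis.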

How the data were processed

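Normalized counts are the deposited signal values, made by the authors by dividing gene counts by 1 size factor per library, as the values show. Upstream tools, per the submitters' processing notes, were Subread 1.5.2 with featureCounts, STAR 2.5.2b, Trimmomatic 0.36 and DESeq2; their settings and the strand setting are not stated. The authors also deposited a log2 fold change and p-values per gene; in the authors' deposited table the log2 sign is vehicle over decitabine for H146 and decitabine over vehicle for F1339, and 28 H146 members and 1 F1339 member passed the threshold.

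Separate fits for H146 and F1339 used limma 3.58.1 (R 4.3.3) on log2(normalized count + 1), with a variance trend, for genes with at least 10 normalized counts in at least 2 of 4 libraries. Fold changes are on that scale, which understates those of low genes; a printed fold is the ratio of arm means, and ± after a log2 fold change is its standard error and after a level the SD (n = 2). p-values were adjusted by the Benjamini-Hochberg method over all genes of a line, two-sided, with a threshold of 0.05. Rows without a symbol (73 in H146 and 28 in F1339) stayed in the fit under their gene identifiers. Whole reads were recovered for 100% of values within 0.001 read (1 read was worth 0.960 to 1.08 normalized counts), and edgeR 4.0.16 and DESeq2 1.42.0 were run on them as alternatives, beside other pseudocounts, filters, scalings, no variance trend, a block and leaving out each library. With 1 library of an arm left out, the spread comes from the arm that keeps both, and the lone library is taken to share it. Intervals are exact and cover counting error only. The fits were also run on simulated counts drawn without an effect of library number, so those runs do not cover the split by number in F1339. Their outcome is not given here.

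The members and all gene lists were chosen with earlier results of these data known. Given in full were called members with a mean of at least 20 in an arm (at most 20 per line), the 2 most abundant of each subfamily, members moving oppositely between lines, and up to 3 called genes per companion list with a mean of at least 50, else the most abundant. Other named genes were chosen after their values were seen. Values of 1 member and 1 marker gene are not reported here, though counts over their lists include them. H146 positions and exon lengths come from GENCODE 29 (GRCh38) and start windows from RefSeq (GRCh38.p14), with 250 bases before and 50 after the start.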

Additional observations from a re-analysis of the deposited data

Results flagged for a closer look

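Of all 11845 genes tested in both lines, 8.37% had arms apart in opposite directions. Among the 47 members with a row in both lines, 7 did. For these, every decitabine library lay on one side of the vehicle libraries in H146 and on the opposite side in F1339. The difference between the lines was not tested for any of them, and the lines differ in species, exposure time and table. As the F1339 log2 fold change minus that of H146, the gap was 2.91 for COL4A4, 1.62 for COL18A1, 1.58 for ITGB5, 1.01 for ITGB3, 0.70 for LAMA5 and 0.63 for LAMA3, all lower in H146 and higher in F1339. It was −1.50 for ITGAL, which was higher in H146 and lower in F1339. COL4A4, ITGB5 and LAMA5 were called in H146 and the others were not, and limma called none of the 7 in F1339. COL4A4 rests on 38 vehicle and 8 decitabine reads in H146, where it passed the filter on low values through its vehicle libraries alone, so its direction there was fixed by the filter.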

How the results depend on the processing

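Of the 31 H146 members called, 13 kept the call under every alternative that tested them and 18 lost it under at least 1; no value changed sign among called members. Without a variance trend the members called lower were 2 (8 with it), and all genes called were 1581 higher and 583 lower (3198 and 2554 with it). Among those lost there were COL22A1, COL3A1, COL4A2, COL4A4, COL9A2, COL9A3, ITGA9, ITGB5, ITGB8, LAMA2, LAMA4 and LAMA5, and COL4A4, COL9A3 and LAMA5 were lost with DESeq2. Leaving out each library in turn gave 15 to 24 members called higher and 4 to 8 lower, and 1534 to 3054 higher and 987 to 2498 lower among all genes. For F1339 DESeq2 called 1 member and 77 genes higher and 30 genes lower. The cause was not tested. Members of few reads have wide counting intervals, and for COL4A1, on 26 and 19 reads, a difference was not detectable at this depth.

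The libraries of both arms carry the numbers 1 and 2, and the labels do not say that a number marks a shared culture or day. Deviations of same-numbered libraries from their arm means correlated at −0.03 in H146 and 0.69 in F1339, across genes. With the number as a replicate block, limma called 11 members higher and 3 lower in F1339, and 777 and 548 of all genes, where 0 were called without it. In H146 the replicate block moved no count of calls by over 1.5 times, and LAMA5 lost its call (adjusted p = 0.0607).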
